A study of Mus musculus with 26 samples.

Results

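The heat shock genes described here are 10 genes of the mouse, chosen by symbol from the 54532 genes of a combined count table: Hspa1a, Hspa1b, Hsph1, Dnajb1, Hspb1, Hspb8, Hsp90aa1, Hspa8, Hspe1 and Hspd1. All 10 were in the table, and 9 passed the filter on low counts that left 14415 genes for testing. Hspa1a did not pass. The RNA came from livers of 26 C57BL/6 mice that were given benoxacor, a safener added to herbicide products to protect crops, by mouth at 0, 0.5, 5 or 50 mg/kg on 3 consecutive days. Livers were collected 24 hours after the final dose. In rising order of dose the groups held 5, 5, 8 and 8 mice, and each mouse gave 1 library. The mice at 0 mg/kg are called controls here. The labels name no allele and give neither the sex nor the vehicle. Mouse ages are given only as an acclimatisation between 4 and 8 weeks, during which bedding was mixed between cages.

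Heat shock proteins are chaperones that keep other proteins folded, or refold them after heat, oxidants or reactive chemicals have damaged them. Heat shock factors, above all Hsf1, switch on the inducible members by binding heat shock elements, short repeats of GAA and its reverse complement TTC, in their promoters. Other members are made at high levels in unstressed cells, and in the liver they serve a tissue that makes large amounts of secreted protein and carries many mitochondria. The cytosolic machine centres on the HSP70 proteins (Hspa1a, Hspa1b and Hspa8), their partners (Dnajb1 and Hsph1), HSP90 (Hsp90aa1) and the small heat shock proteins (Hspb1 and Hspb8). Hspd1 and Hspe1 form the chaperonin of the mitochondrial matrix.

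A few stretches of promoter are shown because they carry heat shock elements and show how alike the HSP70 copies are. The sequences are RefSeq's for GRCm38.p6, read 5′ to 3′ on the strand named. Capitals mark heat shock elements, searched as GAANNTTC and TTCNNGAA, which cover both strands. The first 2 sequences are the 250 bases before the starts of Hspa1b (chr17:34959239-34959488, minus strand) and Hspa1a (chr17:34972157-34972406, minus strand), and the third is 30 bases before the start of Hspe1 (chr1:55088053-55088082, plus strand), which also lie before 1 of the 2 RefSeq starts of Hspd1.
Hspa1b: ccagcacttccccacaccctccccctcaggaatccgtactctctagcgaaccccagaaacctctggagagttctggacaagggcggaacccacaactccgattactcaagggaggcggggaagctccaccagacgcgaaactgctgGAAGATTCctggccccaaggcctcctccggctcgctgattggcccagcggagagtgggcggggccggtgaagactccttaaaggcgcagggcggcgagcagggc
Hspa1a: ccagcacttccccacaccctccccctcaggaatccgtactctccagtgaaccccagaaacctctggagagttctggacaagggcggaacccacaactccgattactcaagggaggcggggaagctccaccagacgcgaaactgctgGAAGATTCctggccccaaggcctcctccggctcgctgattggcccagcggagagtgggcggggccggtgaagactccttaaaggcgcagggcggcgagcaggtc
Hspd1 and Hspe1: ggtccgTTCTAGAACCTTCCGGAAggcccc
The Hspa1b and Hspa1a stretches had 247 of 250 bases in common (98.8%), and both held 1 element, from 104 to 97 bases before the start. The stretch shared by Hspe1 and Hspd1, which lie on opposite strands, held overlapping elements that joined into a run of 18 bases. Windows of 250 bases were at hand for 8 of the 10 genes, all but Hsp90aa1 and Hspa8. An element of 2 units was found in 6 of the 8 (Hspa1a, Hspa1b, Hsph1, Hspb1, Hspe1 and Hspd1), while 12.8% of 32851 windows over all genes, or 14.5% of 27025 genes, held one. A longer element, of 3 alternating units, was found for 2 of the 8, Hspe1 and Hspd1, both times in the 1 stretch that they share. Over all genes 0.466% of windows, or 0.514% of genes, held one. Hspd1 had 2 windows, and only the window of the start inside the annotated Hspd1 gene held these elements, while the window of its other start, at the outer end of the annotated gene, held none. For Dnajb1 and Hspb8 these letters were not in the windows searched. A match describes letters only.

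The mouse numbers in the labels fall into 2 runs, 11 mice numbered from 619 and 15 numbered from 601, and what separates the runs is not in the labels. At 0, 0.5, 5 and 50 mg/kg the run from 619 had 1, 2, 4 and 4 mice, while 4, 3, 4 and 4 were of the run from 601. Dose rises with the mouse number within both runs, so dose and anything that follows the number order cannot be told apart. Libraries held 5433074 to 9088626 reads in genes (median 7105531). Levels are CPM, read counts relative to library size, scaled by TMM, a factor that evens out library composition. Liver markers were high in every library, and Alb, the serum albumin gene, ranged from 33686 to 106224 CPM. Adrenal-type steroid genes, which liver does not normally express, summed to 3535 CPM in 5 mg/kg replicate 8 and to at most 18.4 CPM in each other mouse. The acute phase genes, which liver raises in inflammation, reached 6345 CPM summed in 0.5 mg/kg replicate 2. Results were also fitted without 4 libraries that an earlier look at these data had put in doubt. They were 0.5 mg/kg replicates 1 and 2 and 5 mg/kg replicates 6 and 8. Values that set apart 0.5 mg/kg replicate 1 and 5 mg/kg replicate 6 are not given here.

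Levels per length spanned a wide range. Per kilobase of merged exons and over all 26 mice, Hspa8, the constitutive HSP70, averaged 182 ± 41.9 CPM per kilobase (SD, n = 26). Hspd1 averaged 164 ± 29.1 and Hsp90aa1, the inducible HSP90 of the cytosol, 152 ± 73.6 CPM per kilobase. These top 3 lay within 1 SD of their neighbours. Hspe1 followed with 102 ± 20.4, Hspb8 with 66.7 ± 16.7, Hspb1 with 23.6 ± 11.5 and Hsph1 with 12.5 ± 3.96 CPM per kilobase. Dnajb1 (4.99 ± 1.13) and Hspa1b (4.17 ± 1.94 CPM per kilobase) lay within 1 SD of each other, and Hspa1a was lowest at 0.275 ± 0.169.

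**Figure D1:**
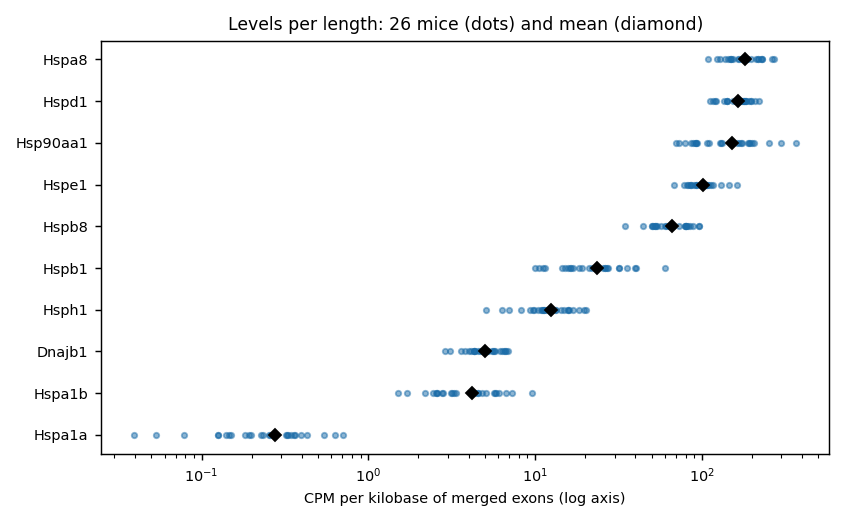
Level of each heat shock gene in CPM per kilobase of merged exons (log axis), with 1 dot for each of the 26 mice and a diamond for the mean. Hspa8, Hspd1 and Hsp90aa1 lie at the top with means of 182, 164 and 152, and Hspa1a at the bottom with 0.275 CPM per kilobase.

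Near-identical sequence limits how surely reads can be given to 1 gene. Of all 50-base windows in the Hspa1b transcript 62.3% also occur in Hspa1a, and for Hspb1 48.8% occur in the pseudogene Hsp25-ps1. For Hsp90aa1 47.5% occur in other genes, most of them in the pseudogene Gm12346, for Hspd1 39.7%, for Hspa8 38.6% and for Hspe1 18.4%. Dnajb1 shared 0.380%, and Hsph1 and Hspb8 shared none. The first exons of Hspd1 and Hspe1 overlap on opposite strands on chromosome 1, Hspa1a overlaps Gm20481 on the opposite strand, and small nucleolar RNA genes lie in Hspa8 on its own strand. The strand setting is not given in the sources used here, so reads in those overlaps cannot be told apart.

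Hspa1b, a stress-inducible HSP70 that is among the most strongly heat-induced genes of mammalian cells, was lower at the higher doses, and it was the member with the largest difference. The gene (ENSMUSG00000090877) is a single exon on the minus strand of chromosome 17, from 34956436 to 34959238 in mm10. Among mice of the run from 619 the single control had 11.7 CPM, the 0.5 mg/kg mice had 18.8 and 16.04, the 5 mg/kg mice had 12.2, 4.21, 7.19 and 7.78, and the 50 mg/kg mice had 12.8, 8.93, 8.83 and 7.18 CPM. For the run from 601 the controls had 27.0, 16.9, 20.4 and 14.2 CPM, the 0.5 mg/kg mice 13.5, 12.7 and 16.4, the 5 mg/kg mice 6.86, 9.20, 9.44 and 15.9, and the 50 mg/kg mice 7.24, 7.87, 6.13 and 4.77 CPM. Of the 8 mice of the 50 mg/kg group 7 fell short of the lowest control, and the eighth, with 12.8 CPM, lay above that control alone. Within the run from 601 the 50 mg/kg mice and the controls did not overlap. How many of all genes show such a separation, or as many mice below the lowest control, was not counted. The mean over the 5 controls was 18.1 ± 5.97 CPM (SD), the 5 mice of the 0.5 mg/kg group averaged 15.5 ± 2.45 CPM, the 8 of the 5 mg/kg group 9.09 ± 3.59 CPM and the 8 of the 50 mg/kg group 7.96 ± 2.37 CPM.

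At 50 against 0 mg/kg the log2 fold change of Hspa1b was -1.18 (SE 0.25, 95% interval -1.70 to -0.66), which is 0.441 times the control level. By edgeR's quasi-likelihood test the unadjusted p was 6.79e-05, the 2nd smallest of 14415 genes, and the Benjamini-Hochberg adjusted p over all genes was 0.489. At an adjusted p of 0.05 edgeR called 1 of the 14415 genes (0.00694%), and it was none of the heat shock genes. At an unadjusted p of 0.05 it passed 5.11% of all genes and 1 of the 9 members, Hspa1b. DESeq2 called Hspa1b lower (log2 fold change -1.20, adjusted p = 0.0180) among 3 genes, 0.0209% of those it tested. limma-voom gave an adjusted p of 0.380. The call thus depends on the tool.

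Hspa1b was also fitted within each run. In the run from 619 alone, with 4 mice at 50 mg/kg and 1 control, the log2 fold change was -0.30 (SE 0.45, edgeR adjusted p = 0.9995); the SE rests on the spread of the other groups, and the lone control is assumed to vary like them. For the run from 601 alone it was -1.59 (SE 0.25, edgeR adjusted p = 0.0104), and Hspa1b was 1 of 4 genes called there, 0.0277% of 14439. The difference between the runs in this comparison was not tested. Over all 10 alternatives other than leaving out a mouse the adjusted p ranged from 0.0104 to 0.9995. Leaving out each mouse in turn gave log2 fold changes from -1.38 to -1.0, with a smallest adjusted p of 0.115, so no such fit reached the threshold. Without the 4 libraries in doubt the log2 fold change was -1.22 (adjusted p = 0.143).

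**Figure D2:**
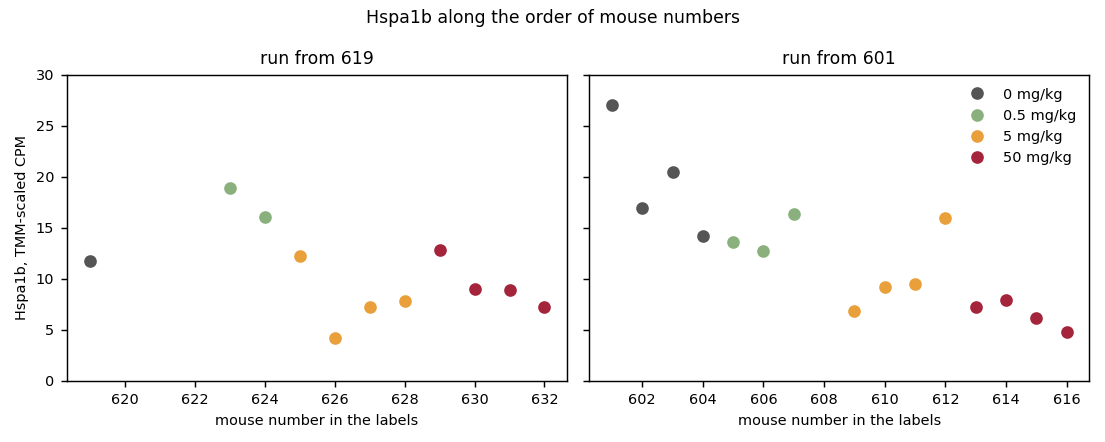
Hspa1b in TMM-scaled CPM against the mouse number in the labels, in the run from 619 (left) and the run from 601 (right), coloured by dose. In the run from 601 the 50 mg/kg mice lie between 4.77 and 7.87 CPM and the controls between 14.2 and 27.0 CPM, while in the run from 619 the single control has 11.7 CPM.

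Hspa1b was also compared at the lower doses. At 5 against 0 mg/kg, a comparison with the same controls, Hspa1b had a log2 fold change of -0.99 (SE 0.24, 95% interval -1.49 to -0.49, edgeR adjusted p = 0.725, DESeq2 adjusted p = 0.193). It ranked 7th by p, and 6 of the 8 mice of the 5 mg/kg group fell short of the lowest control, a count not taken over all genes. Called genes made up 0% of all genes at the adjusted p and 6.18% at the unadjusted p, where 1 member, Hspa1b, passed. At 0.5 against 0 mg/kg the log2 fold change was -0.22 (SE 0.27, adjusted p = 0.936), and each of the 5 mice of the 0.5 mg/kg group lay within the range of the controls. Between 50 and 5 mg/kg it was -0.19 (SE 0.22, 95% interval -0.64 to 0.26, adjusted p = 0.962). No member passed there, where 0% of all genes passed the adjusted and 4.85% the unadjusted p.

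Hspa1a, the neighbouring inducible HSP70 copy on chromosome 17 (34969190 to 34972156), had 1 to 18 reads a mouse and 157 reads in all, against 30 to 193 reads a mouse and 2240 in all for Hspa1b. It held 6.55% of the reads of both. Only 4 mice had at least 10 reads of Hspa1a, which is why it failed the filter. Its 0 mg/kg mice had 2.10, 0.434, 0.961, 1.07 and 0.591 CPM, its 0.5 mg/kg mice 0.981, 0.539, 1.27, 1.61 and 0.117, and the 5 and 50 mg/kg groups averaged 0.801 ± 0.499 and 0.637 ± 0.361 CPM (SD, n = 8 each). The doses overlapped widely. In a fit with no filter on low counts its log2 fold change at 50 against 0 mg/kg was -0.73 (SE 0.54, adjusted p = 0.905 over 31932 genes), so a difference was not detectable at this depth. With the reads of both copies summed, so that the split between the copies does not enter, the pair had 8.60 ± 2.42 CPM in the 8 mice of the 50 mg/kg group and 19.1 ± 6.52 CPM in the 5 controls (SD). The log2 fold change of the sum was -1.16 (SE 0.25, adjusted p = 0.560). Because Hspa1a held only 6.55% of these reads, the sum could differ little from Hspa1b alone. Reads that were given to neither copy do not enter the sum.

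None of the clock and cell type transcripts listed passed the adjusted p at 50 against 0 mg/kg, and their values are given beside those of Hspa1b. Of 15 clock genes 8 were positive and 7 negative (median log2 fold change 0.12), and at the unadjusted p 1 passed upward and 1 downward. Nr1d1, a repressor of the liver clock, had a log2 fold change of -1.27 (edgeR adjusted p = 0.868). Its medians were 29.1 CPM at 50 mg/kg and 75.8 CPM in the controls. Markers of endothelial cells, of which 2 of 7 were positive and 5 negative, summed to 205 to 284 CPM at 50 mg/kg and 236 to 291 CPM in the controls. Vwf, made by endothelial cells, stood at -0.52 (adjusted p = 0.905), and none of the 7 markers was at 0 throughout. Kupffer cell markers, with 3 of 6 positive, summed to 107 to 254 CPM at 50 mg/kg and 158 to 276 CPM in the controls. The part of the clock and of these cells in the Hspa1b result was not tested. In whole liver, fewer cells that express a gene and less of its RNA per cell cannot be told apart.

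The partners of HSP70 had lower means at 50 mg/kg than in the controls, within their spread. Hsph1, an HSP110 that exchanges the nucleotide on HSP70, lies on chromosome 5. It had 115, 104, 147, 79.3 and 71.0 CPM in the controls, and 96.2, 143, 90.2, 134 and 109 CPM at 0.5 mg/kg. At 5 mg/kg its lowest, median and highest values were 37.0, 80.3 and 123 CPM, and at 50 mg/kg they were 45.9, 79.2 and 116 CPM. The groups overlapped, and the log2 fold change was -0.35 (SE 0.24, adjusted p = 0.987) at 50 and -0.38 (SE 0.25, adjusted p = 0.781) at 5 against 0 mg/kg.

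Dnajb1, an HSP40 co-chaperone that hands clients to HSP70 and turns down Hsf1, lies on chromosome 8. It had 21.6, 18.4, 19.8, 13.1 and 11.5 CPM in the controls, and 16.5, 12.8, 20.3, 22.1 and 21.2 CPM in the 0.5 mg/kg group. The lowest, median and highest values were 12.2, 16.1 and 20.97 CPM in the 5 mg/kg group, and 9.25, 14.3 and 18.1 CPM in the 50 mg/kg group. Its 2 lowest mice, with 9.25 and 9.85 CPM, were 50 mg/kg mice of the run from 619, but the groups overlapped. The log2 fold change was -0.25 (SE 0.18, adjusted p = 0.987) at 50 and -0.03 (SE 0.18) at 5 against 0 mg/kg. Within the run from 619, against its single control, Hsph1 and Dnajb1 were positive at 50 mg/kg (0.17 and 0.08).

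Hspa8, the constitutive HSP70 that also uncoats clathrin vesicles, had 979.5, 799, 983, 644 and 645 CPM in the controls, and 710.3, 993, 769, 1161 and 935 CPM in the 0.5 mg/kg group. At 5 mg/kg its lowest, median and highest values were 468, 736 and 1126 CPM, and at 50 mg/kg they were 533, 718 and 932 CPM. No dose stood apart, and the log2 fold change at 50 against 0 mg/kg was -0.21 (SE 0.19, 95% interval -0.61 to 0.19, adjusted p = 0.997).

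Hsp90aa1, the HSP90 isoform that rises under stress, varied most among the abundant members, with a coefficient of variation over the 26 mice of 48.4%, against 23.1% for Hspa8 and 17.7% for Hspd1. The 0 mg/kg mice had 687, 674, 761, 360.0 and 659 CPM. Of the 0.5 mg/kg mice the first 2, which are among the 4 libraries in doubt, had 1171 and 1448 CPM, and the others had 752, 512 and 423 CPM. The lowest, median and highest values were 276, 355 and 998 CPM in the 5 mg/kg group, and 311, 535 and 813 CPM in the 50 mg/kg group. All but 1 of the 5 mg/kg mice lay below 4 of the 5 controls, a count not taken over all genes. The groups overlapped through the control at 360.0 and the 5 mg/kg mouse at 998 CPM, and Hsp90aa1 ranked 4124th of 14415 genes by p there. The log2 fold change was 0.46 (SE 0.35, adjusted p = 0.849) at 0.5, -0.39 (SE 0.32, adjusted p = 0.809) at 5 and -0.08 (SE 0.32, adjusted p = 0.997) at 50 against 0 mg/kg. The value at 0.5 mg/kg turned to -0.11 without the 4 libraries in doubt.

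The small heat shock proteins, which bind unfolding proteins without using ATP, had different patterns. Hspb1 had 16.7, 32.7, 41.2, 19.7 and 10.9 CPM in the controls, and 21.6, 23.7, 27.1, 41.8 and 33.0 CPM in the 0.5 mg/kg group. Its lowest, median and highest values were 10.2, 18.2 and 36.6 CPM in the 5 mg/kg group, and 11.5, 19.8 and 62.0 CPM in the 50 mg/kg group. The ranges overlapped at every dose, and the log2 fold change was 0.12 (SE 0.38, adjusted p = 0.997) at 50 against 0 mg/kg.

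Hspb8, which works with Bag3 in clearing misfolded proteins, had 157, 156, 119, 157 and 164 CPM at 0.5 mg/kg, against 97.6, 102, 99.9, 125 and 105 CPM at 0 mg/kg. In 4 of the 5 mice at 0.5 mg/kg it lay above the highest control, a count not taken over all genes. The log2 fold change was 0.48 (SE 0.22, 95% interval 0.04 to 0.92, edgeR adjusted p = 0.666), so it passed at the unadjusted p only, as did 6.99% of all genes, and 0% passed at the adjusted p. By edgeR 1 of the 9 members, Hspb8, passed unadjusted. Without the 4 libraries in doubt its log2 fold change was 0.38 and did not pass at the unadjusted p. At 5 mg/kg the lowest, median and highest values were 97.99, 126 and 172 CPM, and at 50 mg/kg, where the spread was widest, 67.3, 126 and 188 CPM. The log2 fold changes were 0.27 (SE 0.20, adjusted p = 0.789) and 0.26 (SE 0.20, adjusted p = 0.987) at 5 and 50 against 0 mg/kg.

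No difference of the mitochondrial pair passed at either threshold by edgeR. DESeq2 gave Hspd1 an unadjusted p of 0.0454 at 0.5 against 0 mg/kg (adjusted p = 0.440). Hspd1, the chamber of the chaperonin, lies on the minus strand and Hspe1, its lid, on the plus strand of chromosome 1. Hspd1 had 376, 435, 455, 582 and 521 CPM at 0.5 mg/kg, against 319.9, 375, 422, 423 and 309 CPM at 0 mg/kg, and 4 of the 5 mice at 0.5 mg/kg lay above the highest control. Its log2 fold change there was 0.34 (SE 0.17, 95% interval -0.01 to 0.70, adjusted p = 0.729). The lowest, median and highest values were 294, 470.0 and 504 CPM in the 5 mg/kg group, and 317, 438 and 551 CPM in the 50 mg/kg group, with log2 fold changes of 0.26 (SE 0.16, adjusted p = 0.780) and 0.22 (SE 0.16, adjusted p = 0.987) against 0 mg/kg. Of the 8 mice at 5 mg/kg 7 lay above the highest control and 1 below the lowest, and at 50 mg/kg 4 of the 8 lay above the highest control. These counts rest on a range of 5 controls, and their share over all genes was not taken.

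Hspe1 had 238, 192, 153, 136 and 156 CPM at 0.5 mg/kg, against 159, 122, 146, 149 and 153 CPM at 0 mg/kg. The 2 highest values at 0.5 mg/kg were those of replicates 1 and 2, which are among the 4 libraries in doubt. Its log2 fold change was 0.29 (SE 0.16, adjusted p = 0.768), and 0.07 without the 4 libraries in doubt. The lowest, median and highest values were 99.9, 134 and 214 CPM in the 5 mg/kg group, and 115, 151 and 171 CPM in the 50 mg/kg group. The log2 fold change was 0.01 (SE 0.15) at 5 against 0 mg/kg, and that of 0.04 (SE 0.15) at 50 against 0 mg/kg had a 95% interval from -0.26 to 0.35.

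**Figure D3:**
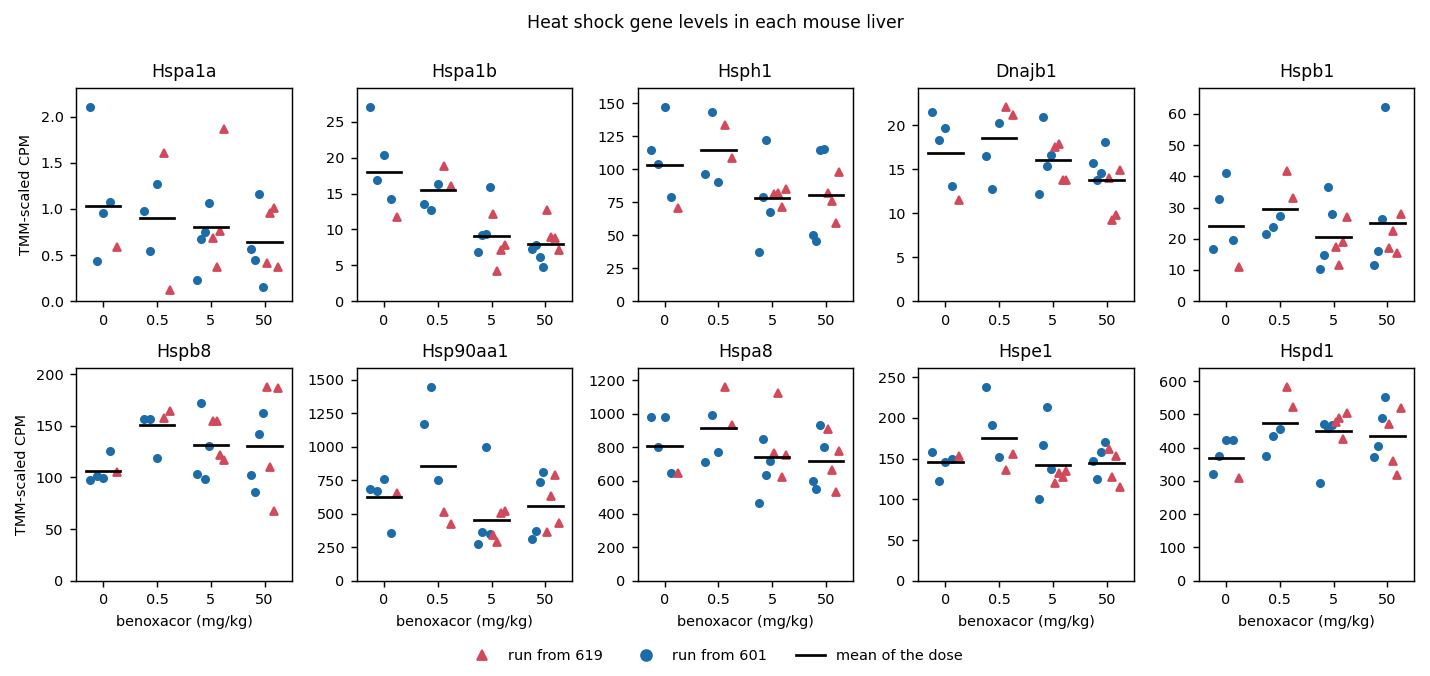
TMM-scaled CPM of the 10 heat shock genes (linear axes from 0) in each of the 26 mice, by dose of benoxacor. Triangles are mice of the run from 619, circles mice of the run from 601, and lines the mean of each dose. Hspa1b steps down to means of 9.09 and 7.96 CPM at 5 and 50 mg/kg, and in every gene the 50 mg/kg mice overlap the controls.

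Counted by direction, 8 of the 9 tested members were positive at 0.5 against 0 mg/kg, with a median log2 fold change of 0.29, beside 50.8% positive and a median of 0.00 over all 14415 genes. Hspa1b was the exception. Without the 4 libraries in doubt 7 of the 9 were positive, with a median of 0.22. The run from 619 alone had 7 of the 9 positive, all set against its single control mouse, and the run from 601 alone had 4 of the 9. The difference between the runs was not tested. At 5 against 0 mg/kg 3 members were positive and 6 negative (median -0.14, and 0.01 over all genes). At 50 against 0 mg/kg 4 were positive and 5 negative (median -0.08, and 0.01 over all genes). These comparisons share their 5 controls, and genes measured in the same mice are not independent of each other.

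**Figure D4:**
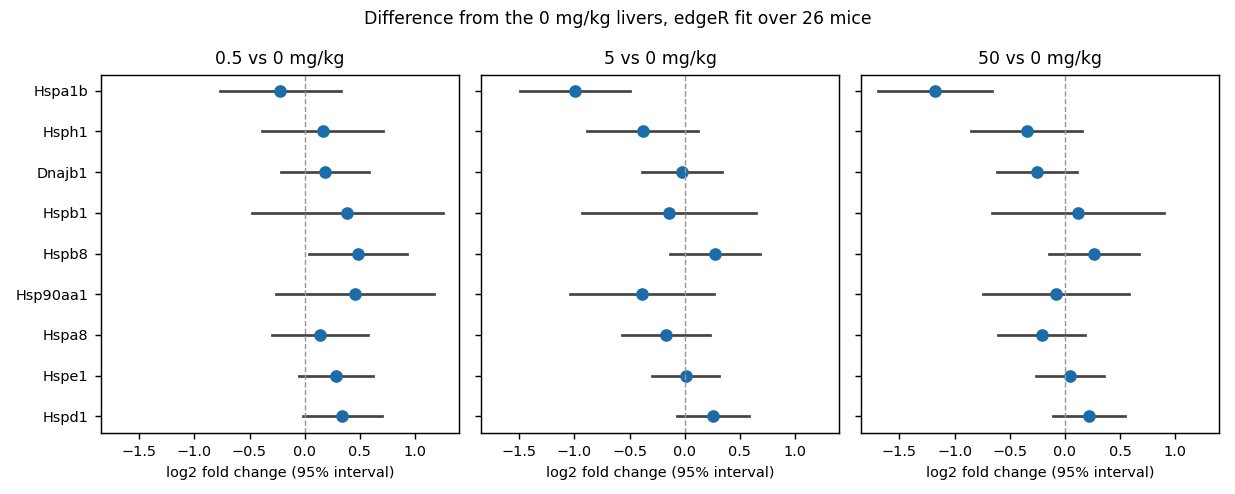
Log2 fold change (dot) and 95% interval (bar) of the 9 tested heat shock genes at 0.5, 5 and 50 mg/kg against 0 mg/kg, from the edgeR fit over 26 mice. The interval of Hspa1b lies wholly below 0 at 5 and 50 mg/kg, and that of Hspb8 above 0 at 0.5 mg/kg; the others cross 0.

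The runs were compared to see whether the members followed the mouse numbering. Between the run from 619 and the run from 601, with dose in the model, the members had log2 fold changes from -0.31 (Hsp90aa1, SE 0.23, adjusted p = 0.808) to 0.13 (Hspb8, SE 0.14, adjusted p = 0.868). Hspa1b stood at 0.01 (SE 0.18, 95% interval -0.36 to 0.37). No member passed at either threshold, while 0.0902% of all genes passed the adjusted p and 7.98% the unadjusted p. The difference between the runs in the step from 5 to 50 mg/kg was tested as an interaction. By edgeR 0% of 13418 genes passed the adjusted p, 4.89% the unadjusted p, and no member either. Hspa1b came closest, at 0.89 (SE 0.43, 95% interval from just below 0 to 1.79, adjusted p = 0.982). DESeq2 gave Hspa1b an unadjusted p of 0.0450 there (adjusted p = 0.955). Its means in the run from 619 were 9.43 ± 2.36 CPM at 50 mg/kg, against 7.84 ± 3.29 CPM at 5 mg/kg, and those of the run from 601 were 6.502 ± 1.36 CPM at 50 mg/kg, against 10.3 ± 3.88 CPM at 5 mg/kg (SD, n = 4 each).

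Pairs of members were compared from mouse to mouse. Of 36 pairs of the 9 tested members, 31 had a positive Pearson r of log2 CPM over the 26 mice, and 14 passed a permutation test at an adjusted p of 0.05 over the 36 pairs, all of them positive. Over all pairs of the 14415 tested genes 49.6% were positive, and 7.69% had an r of at least 0.47, the smallest among those 14 (38.9% of the member pairs). Among the 8139 genes with a mean CPM no lower than that of Hspa1b, the least abundant tested member, these shares were 50.9% and 13.2%. The points share the doses, the runs and the scaling. One mouse, 5 mg/kg replicate 1, was the lowest of all 26 in 6 of the 10 members (Hsph1, Hspb1, Hsp90aa1, Hspa8, Hspe1 and Hspd1), and without it 30 pairs were positive and 9 passed, all of them among the 14. Hsph1 and Hspa8 were the closest pair (r = 0.78, rho = 0.76, permutation p = 1e-05, the smallest that the permutations can give, adjusted p = 0.000360), with r = 0.80 among mice of the run from 619, 0.85 for the run from 601 and 0.68 after leaving out the 2 mice farthest from the median of Hsph1. Hsph1 and Hspb1 followed (r = 0.72, rho = 0.73, permutation p = 3.0e-05, adjusted p = 0.000480, with 0.78 for the run from 619, 0.73 for that from 601 and 0.69 without 2 mice). Hspb8 and Hspd1 had r = 0.70 (rho = 0.72, permutation p = 4.0e-05, adjusted p = 0.000480, with 0.81 for the run from 619, 0.54 for that from 601 and 0.66 without 2 mice). Of the 14 pairs, 12 stayed positive within both runs and after leaving out 2 mice in this way, and the exceptions were Hsph1 with Hsp90aa1 and with Hspe1.

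Hsp90aa1 had correlations of opposite sign in the runs with Hspa8, Hspb8, Hspd1, Dnajb1 and Hsph1, and positive ones in both runs with Hspa1b, Hspb1 and Hspe1. With Hspa8 it had r = -0.71 over the 11 mice of the run from 619 and 0.60 over the 15 mice of the run from 601. With Hspb8 r was -0.82 within the run from 619 and 0.29 within that from 601, and the same 2 values were -0.69 and 0.28 with Hspd1, -0.68 and 0.16 with Dnajb1, and -0.37 and 0.84 with Hsph1, the run from 619 before that from 601. The difference between the runs was not tested. Over all mice Hsp90aa1 and Hspe1 had r = 0.66 (rho = 0.58, permutation p = 0.000250, adjusted p = 0.00225), with 0.24 for the run from 619, 0.72 for that from 601 and 0.52 without 2 mice. Hspe1 and Hspd1, whose proteins work as 1 machine and which share the elements printed above at 1 of the starts of Hspd1, had r = 0.09 (rho = 0.07, permutation p = 0.653, adjusted p = 0.691), with -0.30 for the run from 619 and 0.41 for that from 601.

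**Figure D5:**
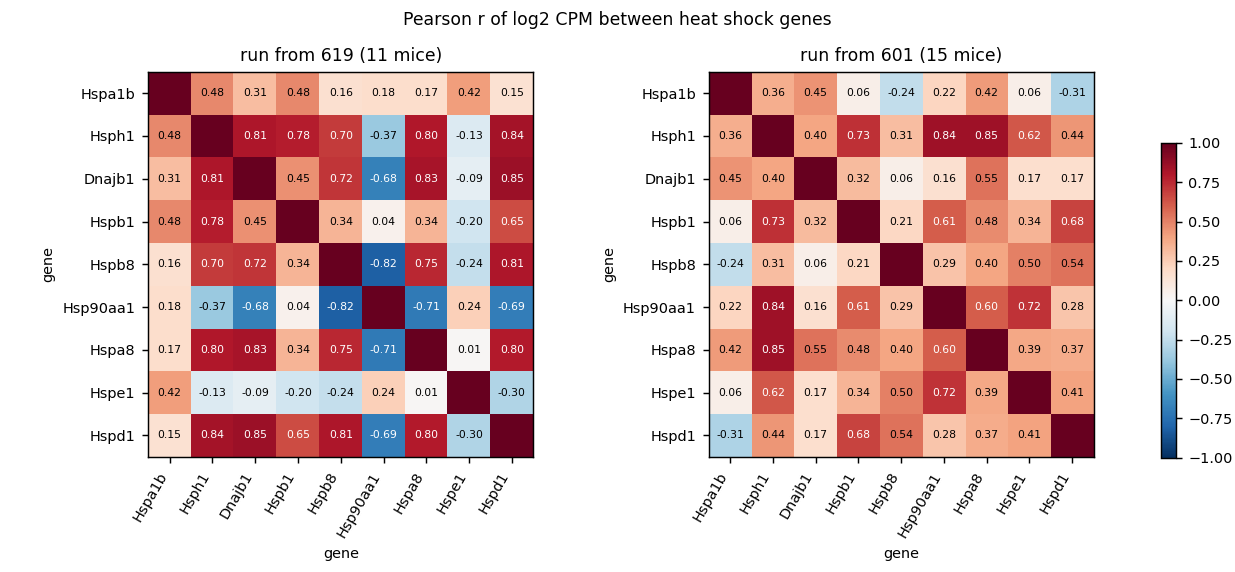
Pearson r of log2 CPM for each pair of the 9 tested heat shock genes, over the 11 mice of the run from 619 (left) and the 15 mice of the run from 601 (right), from -1 (blue) to 1 (red). Hsp90aa1 has negative values with 5 members in the run from 619, down to -0.82 with Hspb8, and positive values throughout in the run from 601.

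Among 14259 other genes with a mean of at least 1 CPM, those most like the mean profile of Hspa1b, Hsph1, Dnajb1 and Hsp90aa1 over the 26 mice were Cfb, a complement factor (r = 0.77, with 0.76 for the run from 619 and 0.79 for that from 601), and Gm12346 (r = 0.73, with 0.07 for the run from 619 and 0.89 for that from 601), the pseudogene that shares sequence with Hsp90aa1. Syvn1, a ubiquitin ligase of the endoplasmic reticulum (r = 0.73), Ero1lb, an oxidase of that compartment (r = 0.72), and Ssr1, a part of its protein channel (r = 0.70), followed. Most like the mean of Hspd1 and Hspe1 were Fh1, the fumarase (r = 0.79), B2m, a part of MHC class I (r = 0.78), Vti1b, a membrane fusion protein (r = 0.77), Set, a histone chaperone (r = 0.76), and Bola2, of iron handling (r = 0.76). In the run from 619 r was 0.41 for Syvn1, 0.47 for Vti1b and 0.94 for Fh1, beside 0.80, 0.89 and 0.74 in the run from 601. Hspd1 and Hspe1 had r = 0.09 with each other, so their mean is not a pattern that both followed. All genes named here were picked for their likeness, so these values are a description.

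The wider chaperone system was taken from lists chosen with earlier results of these data known. Of 4 heat shock factor genes, including the binding protein Hsbp1, 3 were positive and 1 negative at 50 against 0 mg/kg, and none passed. Hsf1, the main factor, had a log2 fold change of 0.15 (SE 0.16, adjusted p = 0.997), with medians of 17.8 CPM at 50 mg/kg and 16.1 CPM in the controls. Hsf2 stood at -0.36 at 5 against 0 mg/kg (adjusted p = 0.780).

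Of 31 other cytosolic chaperones and co-chaperones 14 were positive and 17 negative at 50 against 0 mg/kg (median 0.00), and none passed at the adjusted p. The smallest p values were those of Bag5, which releases nucleotide from HSP70 (0.42, SE 0.15, adjusted p = 0.868), and Dnajb6, which keeps aggregating proteins apart (0.33, SE 0.12, adjusted p = 0.868). At 0.5 against 0 mg/kg 25 of the 31 were positive (median 0.12), beside 50.8% of all genes. Dnajb6 (0.33, adjusted p = 0.605) and Dnaja2, an HSP40 (0.28, adjusted p = 0.605), were foremost. At 5 against 0 mg/kg 13 were positive and 18 negative, with Bag5 at 0.35 and Chordc1, an HSP90 partner, at -0.47 (adjusted p = 0.780 for both).

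All 8 subunits of TRiC, the cytosolic chaperonin that folds actin and tubulin, were positive at 0.5 against 0 mg/kg (median 0.16). Cct5 stood at 0.28 (adjusted p = 0.719). Over all genes 50.8% were positive there. Neither this count nor that of the 31 genes above was split by run or taken without the 4 libraries in doubt. Genes measured in the same mice are not independent of each other. At 50 against 0 mg/kg 6 of the 8 were positive, and none passed in either comparison. Of 12 other mitochondrial chaperones and proteases 9 were positive at 50 against 0 mg/kg (median 0.06), among them Grpel1 (0.25) and Hspa9, the mitochondrial HSP70 (0.21), and none passed.

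Clpx, which unfolds proteins for the matrix protease ClpP, was the single gene of these chaperone lists past the adjusted p in any of the comparisons, and it was in the comparison of runs. It was higher in the run from 619 than in the run from 601 by 0.93 (SE 0.17, adjusted p = 0.0220). Clock genes were called there as well, with Npas2 higher by 3.46 (adjusted p = 0.00987) and Arntl by 1.30 (adjusted p = 0.0490) in the run from 619. These calls depend on the tool and on single mice. In all, edgeR called 13 genes between the runs, DESeq2 108 and limma-voom 1, which was none of these 3, and with 1 mouse left out the count ranged from 2, when 5 mg/kg replicate 4 was dropped, to 60, when either the control numbered 4 or the seventh mouse at 50 mg/kg was dropped. Of the 26 fits that leave out 1 mouse Npas2 was called in 26, Clpx in 18 and Arntl in 7.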

How the data were processed

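Liver RNA of 26 mice was sequenced. The deposited tables hold unnormalised gene counts, made by the authors with bcl2fastq and featureCounts on mm10, per the submitters' processing notes. The aligner, annotation, strand setting and versions are not given in the sources used here. The 26 per-sample tables equalled the combined table. Within doses 76 library pairs gave chi-square values of 10.2 to 104 per degree of freedom, so none agreed within sampling noise. Groups came from the dose labels; replicate numbers follow accession order and pair nothing.

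Counts were filtered with filterByExpr (tested genes hold 99.7% of reads), scaled by TMM and fitted in 1 model of dose and run for the 26 mice by edgeR 4.0.16 (quasi-likelihood test, robust) under R 4.3.3. Benjamini-Hochberg adjustment ran over all tested genes, with calls at an adjusted p of 0.05. For the interaction of run and dose the 2 higher doses alone entered. P-values from edgeR, DESeq2 1.42.0 and limma 3.58.1 measure the spread between mice. Pair correlations used log2 CPM with a prior count of 1 and 100000 permutations, two-sided. They cover 36 pairs, since Hspa1a was not tested. Coordinates and shared 50-base windows are from GENCODE M21 (54409 gene IDs found), and promoters from RefSeq GRCm38.p6. The fit was tested on simulated data. Alternatives were other tools, scaling and filters, the HSP70 copies summed, no run or dose term, other sets of mice, each run alone, and leaving out each mouse. All 10 members, and of each other list up to 4 genes of smallest p, could be named, plus the 5 genes most like each profile. Members and lists were chosen with earlier results of these data known.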

Additional observations from a re-analysis of the deposited data

Results flagged for a closer look

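In 6 of 40 combinations of a heat shock gene and a dose, 1 mouse lay far from the others of its dose by Dixon's test at 95%, which flags about 1 group in 20 by chance. Hspb1 had 62.0 CPM in 50 mg/kg replicate 4, and the next highest mouse of that dose had 28.0 CPM. That mouse held the largest acute phase sum of its dose, 969 CPM. Hspb1 was 23.7 CPM in 0.5 mg/kg replicate 2, which held the largest acute phase sum of all, 6345 CPM. It was 19.7 CPM in 0 mg/kg replicate 4, which held the largest sum of the controls, 424 CPM. A link between them was not tested. Hspb8 had 119 CPM in 0.5 mg/kg replicate 3, below the next lowest at 156 CPM, and 125 CPM in 0 mg/kg replicate 4, above the next highest at 105 CPM. Hsp90aa1 had 998 CPM in 5 mg/kg replicate 3, above the next highest at 522 CPM, and 360.0 CPM in 0 mg/kg replicate 4, below the next lowest at 659 CPM. The control numbered 4 thus stood apart in both genes. Hspd1 had 294 CPM in 5 mg/kg replicate 1, below the next lowest at 426 CPM, and that mouse was the lowest of all 26 in 6 of the 10 members, with 37.0 CPM of Hsph1, 10.2 of Hspb1, 276 of Hsp90aa1, 468 of Hspa8 and 99.9 CPM of Hspe1. The other 6 genes, Hspa1a, Hspa1b, Hsph1, Dnajb1, Hspa8 and Hspe1, had no such mouse in any dose.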

How the results depend on the processing

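Hspa1b kept a lower level at 50 and at 5 against 0 mg/kg under every alternative run. Members called at 50 against 0 mg/kg were 0 by edgeR, 1 by DESeq2 and 1 in the run from 601 alone, Hspa1b each time. No member was called under the other alternatives or in the other comparisons. Apart from leaving out a mouse, 345 of 375 values of single members kept direction and call, 2 gained the call, and 28 turned round, none of them called; the cause was not tested. Against 0 mg/kg in the run from 619 alone, which has 1 control, they were at 50 mg/kg Hsph1 (0.17), Dnajb1 (0.076), Hspa8 (0.17) and Hspe1 (-0.13), at 5 mg/kg Hsph1 (0.17), Dnajb1 (0.45), Hspb1 (0.78), Hspa8 (0.34) and Hspe1 (-0.25), and at 0.5 mg/kg Hspa1b (0.60), Hsp90aa1 (-0.47) and Hspe1 (-0.041). Hspa1b at 50 against 5 mg/kg became 0.27 there. At 0.5 against 0 mg/kg in the run from 601 alone they were Hsph1 (-0.044), Dnajb1 (-0.16), Hspb1 (-0.21) and Hspa8 (-0.074). Hspe1 became -0.0088 at 50 against 0 mg/kg without the run term. At 5 against 0 mg/kg it became -0.041 without that term, -0.015 by limma-voom, -0.010 without the 4 libraries in doubt and -0.00049 with only those doses. Without the 4 libraries Hsp90aa1 became -0.11 at 0.5 against 0 mg/kg and Hspd1 -0.049 between the runs. Between the runs Hspa1b became -0.038 by limma-voom and -0.26 with no dose term, and Hsph1 0.030 by limma-voom and 0.011 in the 5 and 50 mg/kg mice.

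Leaving out each mouse turned round 31 of 622 values. The ranges at 50 against 0 mg/kg were -0.29 (without 50 mg/kg replicate 4) to 0.38 for Hspb1, -0.23 to 0.044 for Hsp90aa1 and -0.018 to 0.11 for Hspe1. At 5 against 0 mg/kg they were -0.15 to 0.067 for Dnajb1, -0.36 to 0.11 for Hspb1 and -0.10 to 0.089 for Hspe1. Hspa8 ranged from -0.0049 to 0.22 at 0.5 against 0 mg/kg, and between the runs Hspa1b from -0.070 to 0.12 and Hsph1 from -0.12 to 0.049. The count of member pairs past the adjusted p was 14, and 9 without 5 mg/kg replicate 1, an alternative chosen after seeing the data. No paired analysis was possible because the replicate numbers only follow accession order. Depth limits Hspa1a, with a median of 5 reads a mouse, most, and the single control limits the run from 619.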
